A study of Mus musculus with 8 samples.

Results

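Messenger RNA of 10 genes for nucleolar proteins and for the protein cores of small nucleolar ribonucleoproteins (snoRNPs) was measured in sorted Ptf1a-lineage cells of the fetal mouse hypothalamus. The genes were taken by name from the deposited gene tables, 10 of 51826 rows: Ncl, Npm1 and Nolc1 for nucleolar phosphoproteins, Fbl, Nop56 and Nop58 for the box C/D core, and Dkc1, Nhp2, Nop10 and Gar1 for the box H/ACA core. They were chosen on values of the comparison described here, total and unique exon reads by genotype, so their differences are given as a description. Where a member falls past the threshold of the fit over all genes is stated only beside the share of all genes that do, and serves as no test of the member. The Ptf1a-cre Homo group was Ptf1a cre/cre; Ai9/+ (4 libraries, numbered 9 to 12, called knockout by the submitters). The Ptf1a-cre Het group was Ptf1a cre/+; Ai9/+ (4 libraries, numbered 1 to 4, called control). Both groups were C57BL/6 fetuses of embryonic day 14.5, and both carried at least one cre allele at Ptf1a and the Ai9 reporter. Ai9 gives red fluorescence after Cre recombination, which marks cells with present or past Ptf1a-cre expression. Whether the libraries represent separate embryos is not stated, and the p-values below measure only the spread between these libraries.

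The nucleolus is where ribosomal RNA is transcribed, chemically modified, cut and packed with ribosomal proteins. Box C/D snoRNPs carry the methyltransferase fibrillarin and guide methylation of ribosomal RNA, and box H/ACA snoRNPs carry the pseudouridine synthase dyskerin and guide pseudouridylation. Nucleolin and nucleophosmin are among the most abundant proteins of the nucleolus, and their levels are known to follow the rate of ribosome production in growing cells.

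Several of these genes have left copies elsewhere in the genome as processed pseudogenes, which bears on reads of 36 bases that map to more than one place. Each 36-base word of the coding sequence was looked up in all transcripts of the GENCODE M21 annotation of GRCm38. For Fbl 89.9% of the words also occurred in another gene, for Npm1 84.2%, for Nop56 40.9% and for Nop10 28.0%. The share was 9.01% for Ncl and lower for the other members, down to 0 for Nop58. The stretches below are given to show what such a word looks like. For each gene shown, a word also found in other genes comes first, which need not be the most widely shared. For Npm1 and Fbl a word found in no other gene follows, beside its closest stretch in the pseudogene that shares the most words. Capitals mark the base that differs, and positions of differences are counted from 1 at the 5′ end of the word.
Npm1 coding bases 362 to 397, also in 6 other genes: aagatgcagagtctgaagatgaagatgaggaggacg
Npm1 coding bases 1 to 36, in no other gene: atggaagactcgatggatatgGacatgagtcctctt
Gm9118, a processed pseudogene of Npm1 on chromosome 10 (difference G22T): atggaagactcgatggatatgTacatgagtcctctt
Fbl coding bases 246 to 281, also in 4 other genes: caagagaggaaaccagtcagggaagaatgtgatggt
Fbl coding bases 77 to 112, in no other gene: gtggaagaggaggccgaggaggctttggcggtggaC
Gm5812, a processed pseudogene of Fbl on chromosome 17 (difference C36G): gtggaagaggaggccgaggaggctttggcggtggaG
Nop56 coding bases 1674 to 1709, also in 5 other genes: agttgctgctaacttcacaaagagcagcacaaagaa

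Gm5812 shares 811 of the 946 words of Fbl and lies inside Tulp4 on the opposite strand. In the tables Gm5812 had no exon length and 0 reads, and 7510 of 8280 processed pseudogene rows likewise had no exon length. Of the processed pseudogenes of Npm1 that share at least 20 words with it, Gm7289 (1 exon read over the Homo libraries and 6 over the Het libraries) and Gm14776 (31 over the Homo and 20 over the Het libraries) had an exon length. The others had none or were not analysed here. Some pseudogenes without an exon length still had whole-gene reads, not scaled by library size. Over the Homo and the Het libraries these were 27 and 8 for Gm5611 and 5 and 5 for Gm14681, copies of Npm1. For copies of Nop56 they were 32 and 4 (Gm27219), 9 and 3 (Gm9432) and 15 and 10 (Gm1947). Gm12020, a copy of Ncl, had 34 and 6. Gm15484, Gm12583, Gm17060, Gm6211 and Gm17837 had 0. The origin of these reads was not tested.

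The libraries held 2571054 to 3009181 total exon reads in the Homo group and 2502387 to 2979647 in the Het group. Ptf1a had 0 exon reads in all Homo libraries and 1 read, in library 3, over the Het libraries, so it does not check the genotype labels. Between 17658 and 24852 genes had an exon read in Homo libraries and between 14617 and 22886 in Het libraries, with the fewest in libraries 9, 1 and 2. Hypothalamic markers summed to 1273 to 1797 counts per 1000000 reads (CPM) in Homo libraries and 1153 to 1495 CPM in Het libraries, and of the 13 of 14 that passed the low-count filter 1 was called higher and 4 lower. Neural progenitor markers summed to 721 to 1153 CPM in Homo libraries and 639 to 999 CPM in Het libraries, with 1 of 8 tested called lower and 0 higher. Telencephalic markers, with 0 of 5 tested called, summed to 32.3 to 216 CPM in Homo libraries and 188 to 232 CPM in Het libraries. Markers of neurons summed to 8076 to 9500 CPM in Homo libraries and 7366 to 7913 CPM in Het libraries, with 5 of 10 called higher and 1 lower. The 18 proliferation markers summed to 230 to 523 CPM in Homo libraries and 203 to 373 CPM in Het libraries, with 1 of 13 tested called higher and 0 lower. No gene was called among the tested erythroid, endothelial and mesenchymal or pericyte markers, which summed to at most 92.6, 216 and 203 CPM in a Homo library and at most 108, 162 and 34.3 CPM in a Het library. None of 9 myeloid markers passed the filter. The part of these cells in the results below was not tested. In a sorted population a lower level per cell and fewer cells that express a gene cannot be told apart.

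Levels between genes can be compared per length, for which the TPM values (transcripts per 1000000) deposited by the authors were used. In the Homo group Npm1 stood highest at 623 ± 51.7 TPM (SD, n = 4), followed by Ncl at 290 ± 45.5, Nop56 at 193 ± 27.9 and Nolc1 at 139 ± 20.1 TPM. These 4 did not overlap their neighbours in the order. Fbl at 61.5 ± 12.6, Nhp2 at 46.6 ± 6.61, Nop10 at 38.3 ± 11.1, Nop58 at 37.0 ± 2.09, Dkc1 at 30.3 ± 10.4 and Gar1 at 27.7 ± 6.69 TPM followed, each overlapping the next. In the Het group Npm1 (322 ± 59.5 TPM) and Nop56 (220 ± 30.3 TPM) overlapped at the top, and Ncl (141 ± 42.2), Nolc1 (124 ± 13.3) and Fbl (98.9 ± 16.3 TPM) formed a second overlapping run. Nhp2 (50.6 ± 6.15) and Nop10 (44.8 ± 9.16 TPM) came next, and Gar1 (25.8 ± 5.63), Nop58 (18.7 ± 4.68) and Dkc1 (17.3 ± 8.23 TPM) came last. The exon length in the tables joins all annotated exons, 10188 bases for Ncl and 10758 for Nop58 against coding lengths of 2121 and 1608 bases, so the TPM of these 2 genes is low for their coding RNA. The TPM values also include reads that did not map uniquely. Such reads averaged 49.5% of Npm1, 82.2% of Fbl and 40.8% of Nop56 exon reads in Homo libraries. In Het libraries they averaged 47.2%, 73.1% and 48.8%. The order was not drawn up on unique reads, so the places of these genes in it are uncertain.

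Across genotypes the 10 genes did not move together. Ncl, Npm1 and Nop58 were about 2-fold higher in Homo libraries on exon reads, though Npm1 stood at log2 0.47 after a correction for GC content and Nop58 at 0.10 on whole-gene reads. Dkc1 was higher in value with wide spread and Fbl was lower in value. Nolc1, Nop56, Nhp2, Nop10 and Gar1 lay within 0.3 log2 units of no difference on total exon reads. On whole-gene reads Nop56 stood at -0.86, Nhp2 at -0.52 and Nop10 at -0.47. The median over the genes tested on exon reads shifted by -0.27 there. After the GC correction Nolc1 stood at 0.44 and Gar1 at 0.42. On total exon reads 3 of the 10 fell past an adjusted p under 0.05 (edgeR quasi-likelihood F test, Benjamini-Hochberg over 12257 genes tested), all higher, beside 6.96% of all tested genes called higher and 6.12% called lower. The same 3 fell past it on unique exon reads, beside 6.70% of 11203 genes called higher and 7.52% called lower. CPM did not overlap between the genotypes for these 3 and for no other member, beside 10.3% of tested genes not overlapping and higher and 9.34% not overlapping and lower (19.6% in all). All 10 passed the low-count filter. Since the genes were picked on this contrast, nothing is read from these counts.

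**Figure D1:**
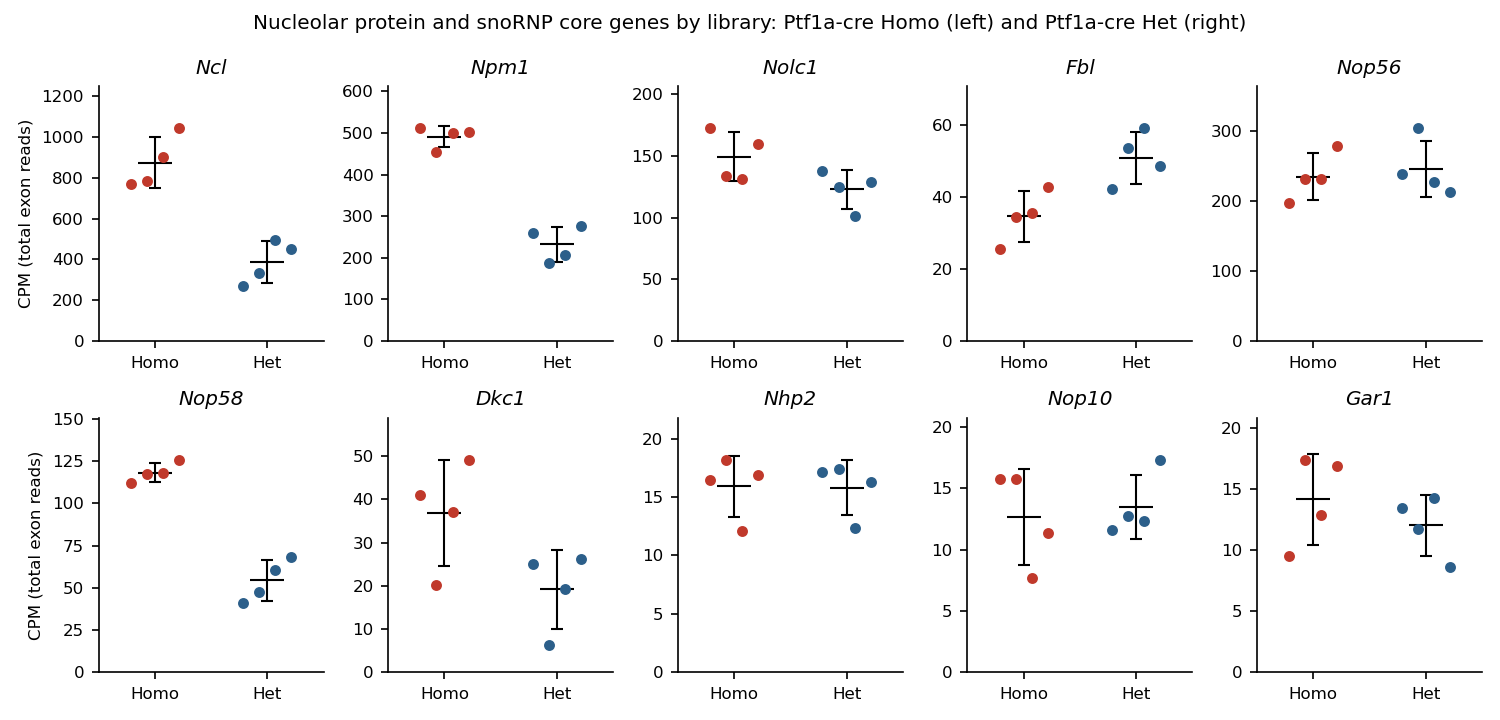
CPM of total exon reads of each gene in each library, with Ptf1a-cre Homo libraries (9 to 12, red) left of Ptf1a-cre Het libraries (1 to 4, blue); bars give the mean ± SD of 4 libraries. The Homo points of Ncl, Npm1 and Nop58 lie above all their Het points, and the other 7 genes overlap.

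Among the nucleolar phosphoproteins, Ncl (ENSMUSG00000026234, GRCm38 chromosome 1, 86344719 to 86359400) encodes nucleolin, which binds nascent ribosomal RNA. Ncl reached 772, 784, 902 and 1043 CPM in Homo libraries 9, 10, 11 and 12, against 272, 332, 496 and 450 CPM in Het libraries 1, 2, 3 and 4. The lowest Homo library stood above the highest Het library, and Het libraries 1 and 2 were the lowest. The log2 fold change was 1.18 ± 0.18 (SE) and lay between 1.03 and 1.27 when any 1 library was left out. Ncl alone took 0.0732% to 0.101% of all exon reads in Homo libraries and 0.0264% to 0.0515% in Het libraries.

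Npm1 (ENSMUSG00000057113, chromosome 11, 33152287 to 33163206) encodes nucleophosmin, a histone and ribosomal protein chaperone of the granular outer zone of the nucleolus. It reached 511, 453, 500 and 502 CPM in Homo libraries 9, 10, 11 and 12, against 259, 188, 207 and 276 CPM in Het libraries 1, 2, 3 and 4. The genotypes did not overlap, and the log2 fold change was 1.08 ± 0.14 (SE), or 0.47 ± 0.16 after the correction for GC content described below. Of its exon reads 44.6% to 55.0% did not map uniquely in Homo libraries and 41.9% to 51.1% in Het libraries. Unique reads gave 283, 230, 255 and 226 CPM in Homo libraries 9, 10, 11 and 12, against 151, 91.9, 108 and 144 CPM in Het libraries 1, 2, 3 and 4. Non-unique reads gave 228, 224, 244 and 276 CPM in Homo libraries, against 109, 95.9, 98.6 and 133 CPM in Het libraries. Both kinds of read were thus higher in every Homo library than in any Het library, and the unique reads alone gave a log2 fold change of 0.98 ± 0.16. How many of all genes separate on either kind of read was not counted, so nothing is read from this.

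Nolc1 (ENSMUSG00000015176, chromosome 19, 46075863 to 46085528) encodes Nopp140, a phosphoprotein that escorts snoRNPs between nucleolus and Cajal bodies. It had 172, 134, 132 and 159 CPM in Homo libraries 9, 10, 11 and 12, against 138, 125, 101 and 129 CPM in Het libraries 1, 2, 3 and 4. The genotypes overlapped, with a log2 fold change of 0.28 ± 0.14. All of its exon reads mapped uniquely. The ratio of Ncl to Nolc1 reads within a library was 4.48 to 6.86 in Homo libraries and 1.96 to 4.92 in Het libraries.

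**Figure D2:**
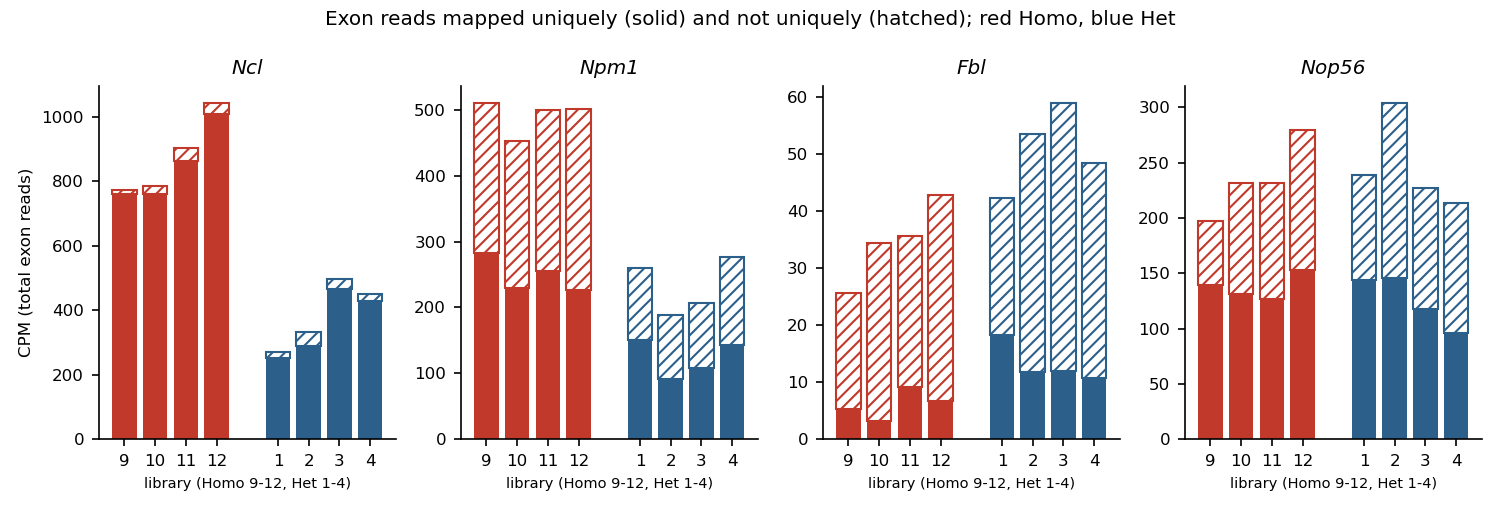
CPM of exon reads that mapped uniquely (solid) and not uniquely (hatched) for Ncl, Npm1, Fbl and Nop56, with Homo libraries 9 to 12 (red) left of Het libraries 1 to 4 (blue); vertical axes start at 0 and differ between panels. Most of each Fbl bar is hatched, Npm1 and Nop56 bars are split about evenly, and Ncl bars are nearly solid.

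The box C/D core genes went separate ways. Nop58 (ENSMUSG00000026020, chromosome 1, 59684971 to 59719044) and Nop56 encode the related scaffold proteins that sit side by side in each box C/D particle. Nop58 had 112, 117, 118 and 126 CPM in Homo libraries 9, 10, 11 and 12, against 41.1, 47.8, 60.5 and 68.1 CPM in Het libraries 1, 2, 3 and 4. The genotypes did not overlap, and the log2 fold change was 1.12 ± 0.16, or 1.14 ± 0.16 on unique reads and 0.10 ± 0.18 on reads over the whole gene. At most 8.39% of its reads in any library were not unique.

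Nop56 (ENSMUSG00000027405, chromosome 2, 130274430 to 130279313) had 198, 231, 231 and 279 CPM in Homo libraries 9, 10, 11 and 12, against 239, 304, 227 and 214 CPM in Het libraries 1, 2, 3 and 4. The ranges overlapped widely, with a log2 fold change of -0.07 ± 0.14. Non-unique reads made up 29.5% to 45.3% of its exon reads in Homo libraries and 39.7% to 55.2% in Het libraries. Unique reads gave 139, 132, 126 and 153 CPM in Homo libraries, against 144, 145, 118 and 95.8 CPM in Het libraries (log2 0.11 ± 0.15). The sign of the Nop56 difference thus turned with the reads counted, and both values lay within their error of 0.

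Fbl (ENSMUSG00000046865, chromosome 7, 28169710 to 28179269), which encodes the methyltransferase fibrillarin itself, had 25.6, 34.3, 35.6 and 42.8 CPM in Homo libraries 9, 10, 11 and 12. It had 42.2, 53.5, 59.0 and 48.4 CPM in Het libraries 1, 2, 3 and 4. Homo library 12 and Het library 1 overlapped narrowly, and the log2 fold change was -0.56 ± 0.19. Of its exon reads 79.5%, 90.6%, 74.2% and 84.4% were not unique in Homo libraries 9, 10, 11 and 12, against 56.6%, 78.1%, 79.7% and 77.9% in Het libraries 1, 2, 3 and 4. The unique remainder was 15, 8, 25 and 17 reads in Homo libraries, against 49, 35, 31 and 31 reads in Het libraries. These few reads did not overlap between genotypes and gave a log2 fold change of -1.12 ± 0.40. The non-unique reads overlapped at 20.3 to 36.1 CPM in Homo libraries and 23.9 to 47.0 CPM in Het libraries. Unique reads were among the values that chose the genes, and how many of all genes do not overlap on them was not counted. Nothing is read from the lack of overlap.

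Ratios within a library do not depend on library scaling. Nop58 had 0.57, 0.51, 0.51 and 0.45 exon reads per Nop56 read in Homo libraries 9, 10, 11 and 12, against 0.17, 0.16, 0.27 and 0.32 in Het libraries 1, 2, 3 and 4. On unique reads the ratio was 0.81 to 0.92 in Homo libraries and 0.29 to 0.68 in Het libraries, again without overlap. Fbl had 0.13, 0.15, 0.15 and 0.15 reads per Nop56 read in Homo libraries, against 0.18, 0.18, 0.26 and 0.23 in Het libraries. Per Nop56 read, Nop58 was thus higher and Fbl lower in each Homo library than in each Het library. The ratios use the reads that chose the genes, and how many other gene pairs separate was not counted, so nothing is read from them. They are not corrected for GC content, which was 42.9% for Nop58, 50.2% for Nop56 and 55.8% for Fbl. After the GC correction described below, the log2 fold change was 0.67 ± 0.13 for Nop58, -0.11 ± 0.14 for Nop56 and -0.28 ± 0.20 for Fbl. The part of GC content in the ratios was not tested. These ratios are not per length.

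**Figure D3:**
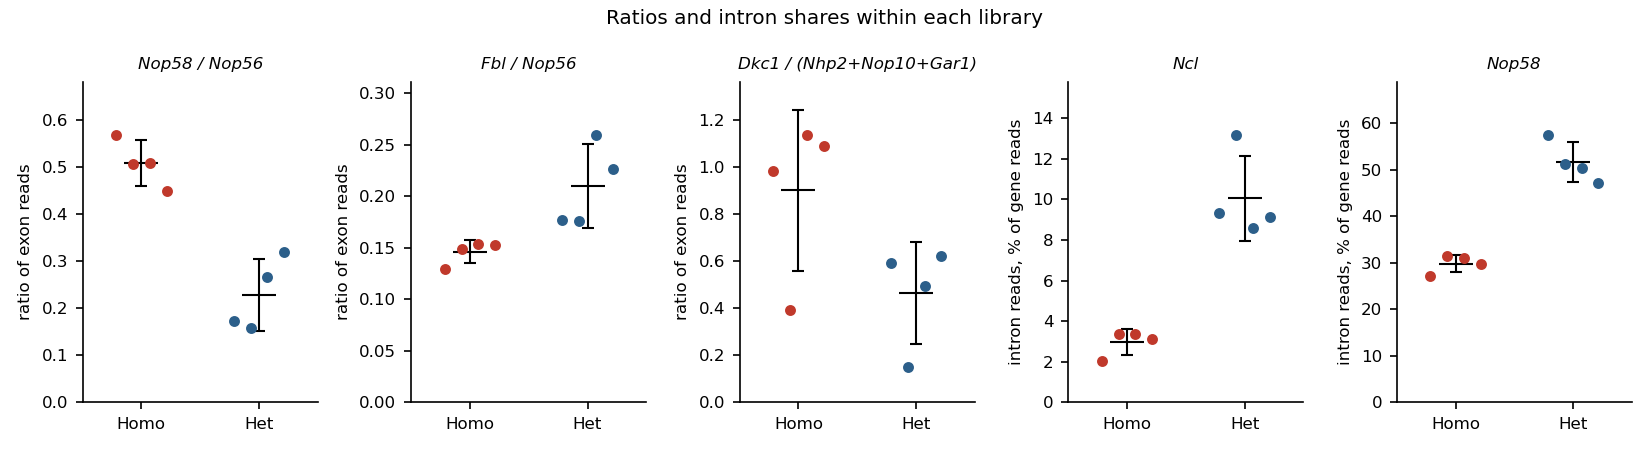
Left 3 panels, ratio of exon reads between genes of one particle within each library; right 2 panels, intron reads as a percent of all reads of the gene for Ncl and Nop58. Homo libraries (red) stand left of Het libraries (blue), with the mean ± SD of 4 libraries; only the Dkc1 ratio overlaps between the genotypes.

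Among the box H/ACA core, Dkc1 (ENSMUSG00000031403, chromosome X, 75095854 to 75109777) encodes dyskerin, the pseudouridine synthase that also holds telomerase RNA. It had 41.0, 20.2, 37.0 and 49.1 CPM in Homo libraries 9, 10, 11 and 12, against 25.0, 6.35, 19.3 and 26.3 CPM in Het libraries 1, 2, 3 and 4. Homo library 10 fell among the Het values and Het library 2 was the lowest of all. The log2 fold change was 0.94 ± 0.36. On reads across exon-exon junctions, where Dkc1 had 25 to 64 reads in Homo libraries and 9 to 34 in Het libraries, it was 1.15 ± 0.37. With Ncl, Npm1, Nop58 and Dkc1, 4 of 9 members fell past the threshold on such reads, beside 6.96% of 7066 genes called higher and 4.05% called lower, from which nothing is read either.

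The small partners of dyskerin were sparsely read and overlapped fully. Nhp2 (ENSMUSG00000001056, chromosome 11, 51619735 to 51623714), an RNA-binding partner of dyskerin, had 12.1 to 18.2 CPM in Homo libraries and 12.3 to 17.4 CPM in Het libraries (log2 0.01 ± 0.27). Nop10 (ENSMUSG00000027133, chromosome 2, 112261926 to 112263269), a short protein that binds dyskerin, had 7.70 to 15.8 CPM in Homo libraries and 11.6 to 17.3 CPM in Het libraries (log2 -0.09 ± 0.33). Gar1 (ENSMUSG00000028010, chromosome 3, 129824912 to 129831396), which also binds dyskerin, had 9.47 to 17.4 CPM in Homo libraries and 8.65 to 14.3 CPM in Het libraries (log2 0.23 ± 0.32).

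At 21 to 47 exon reads per Homo library and 25 to 52 per Het library for Nhp2, Nop10 and Gar1 the SE of 0.27 to 0.33 log2 units limits what could be resolved for them at this depth. Dkc1 had 0.39 to 1.13 reads per read of Nhp2, Nop10 and Gar1 summed in Homo libraries and 0.15 to 0.62 in Het libraries, with only Homo library 10 inside the Het range. Every exon read of Dkc1, Nhp2, Nop10 and Gar1 mapped uniquely in all 8 libraries, although 28.0% of the Nop10 words occur in another gene.

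The direction of calls over all genes moved with base composition, and these genes span its range. The median transcript GC content was 44.5% for the genes called higher and 56.9% for those called lower, against 50.5% for all tested genes. Of genes within 1 percentage point of Npm1 (40.1% GC), 24.7% were called higher and their median log2 fold change was 0.55, and around Nop58 (42.9% GC) 21.7% were called higher with a median of 0.45. Around Dkc1 (44.9% GC) the share was 15.5% and around Ncl (46.4% GC) 10.9%, with medians of 0.36 and 0.28. Fbl lies at 55.8% GC, where 11.8% were called lower and the median was -0.29. The remaining members had values opposite in sign to the median around them. The median was 0.28 around Nop10 (itself at -0.09), 0.06 around Nop56 (-0.07) and -0.30 around Nhp2 (0.01). It was -0.17 around Gar1 (0.23) and -0.15 around Nolc1 (0.28).

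After a per-library correction for GC content the log2 fold change was 0.92 ± 0.15 for Ncl, 0.67 ± 0.13 for Nop58, 0.47 ± 0.16 for Npm1, 0.60 ± 0.34 for Dkc1 and -0.28 ± 0.20 for Fbl. With the correction Ncl and Nop58 fell past the threshold, beside 1.35% of 12238 genes called higher and 0.997% called lower (2.35% in all), on the same reads that chose the genes. Leaving out 1 library gave 0.78 to 1.01 for Ncl, 0.59 to 0.72 for Nop58, with the call lost without library 2, 10 or 11, and 0.31 to 0.63 for Npm1, past the threshold without library 1. The log2 fold change after the correction was 0.44 ± 0.13 for Nolc1, 0.42 ± 0.32 for Gar1 and 0.30 ± 0.26 for Nhp2 and -0.11 ± 0.14 for Nop56 and -0.35 ± 0.32 for Nop10. The part of GC content in the uncorrected differences was not tested further.

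**Figure D4:**
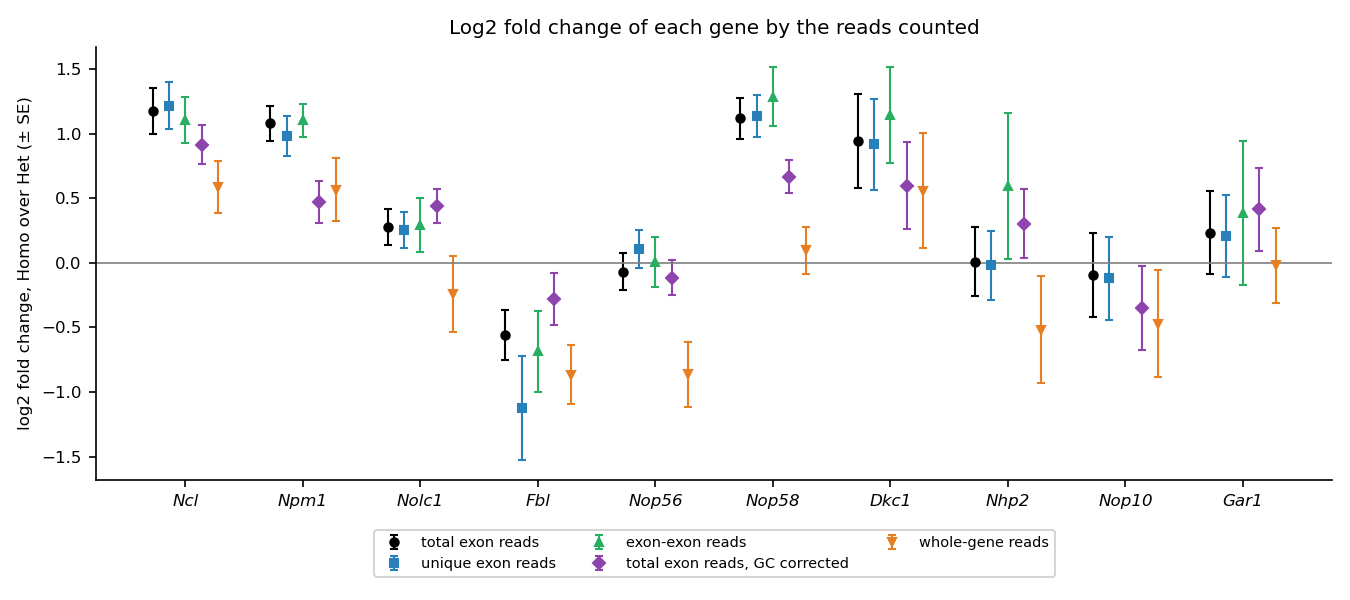
Log2 fold change (Homo over Het, ± SE) of each gene from total, unique and exon-exon reads, from total exon reads after GC correction, and from reads over the whole gene. Ncl, Npm1, Nop58 and Dkc1 stay above 0 and Fbl below 0 in all 5. Nop10 lies below 0 in the 4 it was tested in (too few exon-exon reads), and the other 4 genes have values on both sides of 0.

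Reads in introns, whose origin was not tested, were counted separately and did not move in 1 way. For Ncl they made up 2.05%, 3.38%, 3.38% and 3.14% of the gene's reads in Homo libraries 9, 10, 11 and 12, against 9.35%, 13.2%, 8.59% and 9.14% in Het libraries 1, 2, 3 and 4. Counted directly, Ncl had 46, 68, 86 and 86 intron reads in Homo libraries, against 75, 151, 121 and 131 in Het libraries, of which 22 to 37 in Homo libraries and 20 to 42 in Het libraries were unique. For Nop58 the intron share was 27.3%, 31.4%, 31.1% and 29.7% in Homo libraries, against 57.5%, 51.4%, 50.5% and 47.2% in Het libraries. Nop58 had 120, 133, 145 and 135 intron reads in Homo libraries, against 149, 151, 160 and 176 in Het libraries. Its unique intron reads overlapped, at 106 to 113 in Homo libraries and 85 to 142 in Het libraries. The exon reads of both genes were thus higher in Homo libraries while their intron reads were not.

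Dkc1 had 15, 8, 21 and 17 intron reads in Homo libraries 9, 10, 11 and 12, against 5, 4, 6 and 8 in Het libraries 1, 2, 3 and 4. Npm1 had 29, 44, 81 and 68 in Homo libraries, against 20, 33, 38 and 35 in Het libraries. Gar1 had 34 in each Homo library and 5, 15, 28 and 31 in Het libraries. These counts, not scaled by library size, were higher in Homo libraries for Gar1 without overlap. The genotypes touched at 8 reads for Dkc1 and overlapped for Npm1. How many of all genes do not overlap on intron reads or intron shares was not counted. Nothing is therefore read from a lack of overlap on them for any member. Fbl had an intron share of 10.98% to 25.4% in Homo libraries and 2.44% to 9.68% in Het libraries. Nop56 overlapped narrowly, at 12.8% to 21.9% in Homo libraries and 21.3% to 33.2% in Het libraries, and Npm1 overlapped at 1.95% to 5.61% in Homo libraries and 2.80% to 6.61% in Het libraries. Over all reads of all genes, intron reads were 59.6% to 69.2% of gene reads in Homo libraries and 63.8% to 70.9% in Het libraries. The median intron share of the tested genes also overlapped between the genotypes, at 36.8%, 51.1%, 48.9% and 48.2% in Homo libraries 9, 10, 11 and 12, against 30.1%, 33.3%, 44.4% and 43.4% in Het libraries 1, 2, 3 and 4. Counted over the whole gene, introns included, the log2 fold change was 0.59 ± 0.20 for Ncl, 0.57 ± 0.24 for Npm1 and 0.10 ± 0.18 for Nop58, and -0.87 ± 0.23 for Fbl and -0.86 ± 0.25 for Nop56. No member fell past the threshold on those reads, beside 0.0307% of 19551 genes called, and the median over the genes tested on exon reads shifted by -0.27 with them.

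Introns of 4 of the genes host small nucleolar RNAs. The same transcription unit thus yields small nucleolar RNAs and a snoRNP core protein or, for Ncl, a nucleolar phosphoprotein. The tables list 13 snoRNA rows inside the members: 3 in Ncl (Snora75, Gm24148 and Snord82), 5 in Nop56 (among them Snord110 and Snord57), 4 in Nop58 (among them Snord70 and Snord11) and 1 in Dkc1 (Gm25520). All 13 had 0 reads in all libraries. None of the 1508 snoRNA rows had an exon length or an exon read, so a count of 0 there does not measure the RNA.

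Promoter sequence was available from RefSeq (GRCm38.p6) for 8 of the 10 genes, all but Npm1 and Fbl. The 150 bases before the RefSeq start of Ncl and Nop58 are printed, as members with higher exon reads in Homo libraries. RefSeq starts differ from the gene coordinates given above for all 3 genes printed. The Nop58 stretch runs past base 59684971, where the gene begins by those coordinates. Those of Nop56 are printed as a member near no difference on total exon reads. Capitals mark matches to the words searched, read on either strand. The E-box was spelled CACGTG and the core bound by ETS factors was spelled CCGGAA. The GC box was spelled GGGCGG and the TATA box was spelled TATAAA. The CCAAT box and the word TCGCGA were searched as written. No match of one word overlapped that of another in these 3 stretches.
Ncl, chr1:86359456-86359605, minus strand: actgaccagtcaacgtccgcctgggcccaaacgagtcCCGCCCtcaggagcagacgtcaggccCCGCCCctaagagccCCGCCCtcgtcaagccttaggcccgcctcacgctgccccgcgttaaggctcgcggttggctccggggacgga
Nop58, chr1:59684856-59685005, plus strand: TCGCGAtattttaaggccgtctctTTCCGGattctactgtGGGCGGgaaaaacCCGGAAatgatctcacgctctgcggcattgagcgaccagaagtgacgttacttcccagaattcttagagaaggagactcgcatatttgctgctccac
Nop56, chr2:130274262-130274411, plus strand: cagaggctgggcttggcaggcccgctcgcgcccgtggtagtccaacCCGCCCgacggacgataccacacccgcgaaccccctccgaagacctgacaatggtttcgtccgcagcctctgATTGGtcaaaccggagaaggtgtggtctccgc

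Within 250 bases before the start, Ncl held 3 GC boxes, and Nop58 held 2 ETS cores, 1 GC box and 1 TCGCGA word. The E-box occurred in 0 of the 8 members and in 6.05% of 27025 promoters of that length. GC boxes occurred in 5 of 8 and in 32.9% of all, ETS cores in 4 of 8 and in 12.2% of all, and CCAAT in 2 of 8 and in 34.5% of all. TCGCGA occurred in 1 of 8 and in 2.14% of all, and the TATA box in 1 of 8, Dkc1, and in 13.0% of all. A match is only a match of letters.

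Genes whose level over the 8 libraries was most like the mean profile of the 10 genes were found by the mean absolute difference of centred log2 CPM. The 5 closest, predicted genes and pseudogenes aside, were Zfp146, Ttc1, Nsd1, Eif1ax and Rnf19a, at 0.043 to 0.068 log2 units from that profile. Zfp146 had 63.4 to 71.4 CPM in Homo libraries and 46.4 to 53.6 CPM in Het libraries.

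Genes of ribosome making were described with those of the Myc family, nucleolar stress, telomerase and small Cajal bodies in 6 lists. Of these lists 181 genes were tested on total exon reads, so counts across them are not for ribosome making alone. Across the lists 22 genes rose, 9 fell and the rest did not pass (edgeR, adjusted p under 0.05 over all genes), 17.1% called beside 13.1% of all tested genes. After the GC correction 0 of them rose and 1, Polr2l, fell, beside 1.35% of all genes called higher and 0.997% called lower. The median log2 fold change of all tested genes was 0.04 before the correction and 0.00 after it.

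**Figure D5:**
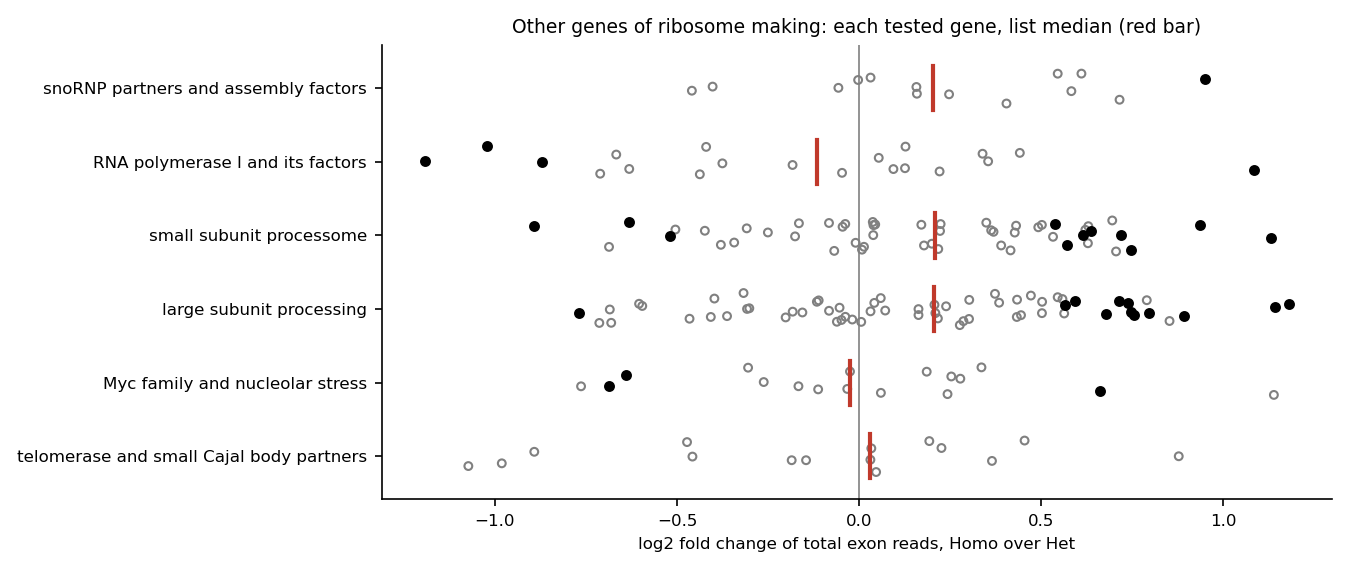
Log2 fold change of total exon reads (Homo over Het) of each tested gene in 6 lists; filled points passed an adjusted p under 0.05 in edgeR, open points did not, and red bars give list medians. The small and large subunit lists have medians of 0.21 and most of the filled points, and every list spreads to both sides of 0.

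Of 14 tested partners and assembly factors of snoRNPs, 1 rose and 0 fell, with a median log2 fold change of 0.20 (0.25 after the GC correction). The riser was Tgs1, the enzyme that hypermethylates the caps of small nuclear and nucleolar RNAs, at 82.7 ± 19.9 CPM in Homo libraries and 42.9 ± 17.3 CPM in Het libraries (log2 0.95 ± 0.26, adjusted p = 0.0297). Its ranges overlapped. Tgs1 did not pass with the GC correction (log2 0.42), nor when library 1, 2, 9, 11 or 12 was left out (0.76 to 1.15 over the 8 such fits).

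Of 20 tested subunits and factors of RNA polymerase I, 1 rose and 3 fell, with a median of -0.11 (-0.16 after the correction). The 4 calls fell to 1 without library 2, 4, 9 or 10 and to 2 without library 11 or 12. Polr2l (9.06 ± 2.14 CPM in Homo libraries and 20.8 ± 2.75 CPM in Het libraries, log2 -1.19 ± 0.29, adjusted p = 0.0159), Polr2f (log2 -1.02 ± 0.29, adjusted p = 0.0323) and Polr2e (log2 -0.87 ± 0.26, adjusted p = 0.0423) fell. These 3 encode small subunits that RNA polymerases I, II and III share. Twistnb, a subunit of polymerase I alone, rose to 36.0 ± 10.8 CPM in Homo libraries, against 16.9 ± 6.83 CPM in Het libraries (log2 1.09 ± 0.31, adjusted p = 0.0317). After the GC correction Polr2l alone of the 4 passed (log2 -1.15). On unique reads the Polr2l value was -0.51 and did not pass. The other 3 calls were also lost without some libraries: Twistnb without 1, 2, 4, 9, 10 or 12 (log2 0.88 to 1.30), Polr2f without 2, 4, 9, 10, 11 or 12 (-1.20 to -0.90) and Polr2e without 2, 4, 9, 10 or 11 (-1.06 to -0.66).

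The small subunit processome is the assembly in which fibrillarin, Nop56 and Nop58 act with the U3 snoRNA on the nascent ribosomal RNA. The list drawn up for it also holds factors of later small subunit maturation, among them Riok1. Of the 52 genes tested in this list 8 rose and 3 fell. The other 41 did not reach the threshold, at a list median of 0.21 (0.12 after the correction, with 0 called). The 11 calls fell to 5 without library 1 or 9 and to 4 without library 2, 10, 11 or 12. The helicase gene Ddx10 rose to 48.0 ± 7.45 CPM in Homo libraries, against 21.9 ± 5.65 CPM in Het libraries (log2 1.13 ± 0.22, adjusted p = 0.00582), and did so in each fit without 1 library. Wdr43, an early processome subunit (log2 0.72 ± 0.17, adjusted p = 0.0137), and the kinase gene Riok1 (log2 0.75 ± 0.18, adjusted p = 0.0171) rose too. The helicase gene Dhx37, which dissolves the processome, fell to 34.0 ± 3.18 CPM in Homo libraries, against 52.6 ± 6.82 CPM in Het libraries (log2 -0.63 ± 0.17, adjusted p = 0.0260). Leaving out library 2 or 11 ended the Riok1 call (0.67 to 0.85 over such fits) and leaving out 2, 10 or 11 the Dhx37 call (-0.72 to -0.54), and none of the 4 passed after the GC correction (log2 0.68, 0.36, 0.35 and -0.30).

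Of 63 tested genes of large subunit processing 11 rose and 1 fell, and 51 did not reach the threshold, at a median of 0.21 (0.11 after the correction, with 0 called). The 12 calls fell to 4 without library 2, 6 without library 11 and 7 without library 12. Nsa2, an assembly factor of the large subunit, rose to 182 ± 9.07 CPM in Homo libraries, against 108 ± 21.7 CPM in Het libraries (log2 0.75 ± 0.14, adjusted p = 0.00524). Gnl2, a nucleolar GTPase, rose to 104 ± 2.74 CPM in Homo libraries, against 63.3 ± 8.78 CPM in Het libraries (log2 0.71 ± 0.14, adjusted p = 0.00546). Ddx21, a nucleolar helicase that binds snoRNAs, rose to 145 ± 6.39 CPM in Homo libraries, against 90.9 ± 13.5 CPM in Het libraries (log2 0.68 ± 0.13, adjusted p = 0.00607). Cebpz rose as well (log2 0.89 ± 0.19, adjusted p = 0.00829). The genotypes did not overlap for these 4, as for 19.6% of all tested genes. All 4 passed in each fit without 1 library, and none passed after the GC correction (log2 0.21, 0.51, 0.44 and 0.46).

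In the Myc family and the genes of nucleolar stress, 1 of 17 tested rose and 2 fell, with a median of -0.02 (-0.01 after the correction, with 0 called). The 3 calls fell to 1 without library 1, 2, 9, 10, 11 or 12. Mycl, a Myc family factor, fell to 74.4 ± 2.94 CPM in Homo libraries, against 120 ± 19.8 CPM in Het libraries (log2 -0.69 ± 0.14, adjusted p = 0.00736), in each fit without 1 library but not after the GC correction (log2 -0.37). Mga, a partner of Max (log2 0.66 ± 0.18, adjusted p = 0.0262), rose and Mxd4, another partner of Max (log2 -0.64 ± 0.20, adjusted p = 0.0476), fell. Both lost the call after the correction (log2 0.30 and -0.41) and without library 1, 2, 9, 10, 11 or 12 (0.51 to 0.77 and -0.83 to -0.46).

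The list of telomerase and small Cajal body partners had 0 of 15 tested genes past the threshold, with a median of 0.03 (-0.06 after the correction). Wrap53, the protein that leads box H/ACA RNAs to Cajal bodies, had the smallest p of the list. It stood at 7.73 ± 3.12 CPM in Homo libraries and 16.3 ± 5.62 CPM in Het libraries (log2 -1.07 ± 0.41, edgeR adjusted p = 0.0950).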

How the data were processed

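RNA of sorted cells was sequenced as paired reads of 36 bases from 10 ng of total RNA, per the labels. The deposited tables hold whole-number counts of total and unique reads over exons, exon-exon junctions, introns and whole genes, per the file headers, with RPKM and TPM computed by the authors. The builds are GRCm38 and mm10, per the submitters' processing notes; the sources used here give neither mapping and counting software nor the use of strand. Total exon reads were tested in edgeR 4.0.16 (R 4.3.3; filterByExpr, TMM, quasi-likelihood F test, Benjamini-Hochberg adjustment); SE is the log2 fold change divided by the square root of F. CPM uses TMM-scaled sizes of the tested genes. The GC correction subtracts, per library, a lowess curve (span 0.3) of log2 CPM (prior count 2) against GENCODE M21 transcript GC. DESeq2 1.42.0 was an alternative. The fits were also run on simulated counts with the same dispersion for all genes and no GC effect. That run cannot show how the fits handle GC content or non-unique reads. Members and lists were chosen with earlier results of these data known. Named pathway genes are the 4 smallest p among those called per list, or the 1 smallest where none was; the 5 most alike genes, and pseudogene rows sharing 20 words, completed the rule. Nopchap1 and Riok2 were not analysed here.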

Additional observations from a re-analysis of the deposited data

Results flagged for a closer look

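In 4 of 84 groups of 4 libraries, 1 library stood apart from the other 3 by Dixon's gap test at the 95% level, where chance gives about 1 group in 20. For Fbl, 56.6% of exon reads were not unique in Het library 1, against 77.9% to 79.7% in the other Het libraries. For Nop56, 29.5% were not unique in Homo library 9, against 43.1% to 45.3% in the other Homo libraries. The intron share of Ncl reads was 13.2% in Het library 2, against 8.59% to 9.35% in the other Het libraries. Dhx37 stood at 62.8 CPM in Het library 2, against 48.6 to 50.0 CPM in the other Het libraries.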

How the results depend on the processing

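No paired analysis was possible because the genotypes share no library number. Total exon reads gave 1603 calls among 12257 genes. Separate fits gave 778 calls among 7066 genes on exon-exon reads, 6 among 19551 on whole-gene reads, 287 among 12238 after the GC correction, and 734 to 2077 without 1 library (985 without library 1, 734 without 2, 911 without 10, 836 without 11 and 840 without 12). Direction moved too: 559 of 1563 calls were higher with a 1 CPM filter, against 853 of 1603. Without a low-count filter the median of the same genes shifted by -0.13.

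Among the lists, snoRNP partners had 1 call, 0 on whole-gene reads or after the GC correction, 2 with DESeq2, no low-count filter or a 1 CPM filter, and 0 to 1 without 1 library (0 with the correction). RNA polymerase I had 4 calls, 2 on unique reads or the deposited expression value, 0 on exon-exon or whole-gene reads, 1 after the correction, and 1 to 4 without 1 library (0 to 1 with the correction). The small subunit processome had 11 calls, 3 on exon-exon reads, 0 on whole-gene reads or after the correction, 7 with a 1 CPM filter, and 4 to 11 without 1 library (0 to 1 with the correction). Large subunit processing had 12 calls, 6 on exon-exon reads, 0 on whole-gene reads or after the correction, and 4 to 11 without 1 library (0 to 1 with the correction). The Myc list had 3 calls, 0 on whole-gene reads or after the correction, 5 on the deposited expression value, and 1 to 4 without 1 library (0 with the correction). The telomerase list had 0 calls and 0 to 1 without 1 library. Riok1 turned to -0.12 on whole-gene reads. The causes were not tested.

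Ncl, Npm1, Nop58 and Dkc1 were above 0 and Fbl below 0 in all 26 alternatives run for each, with log2 fold changes of 0.59 to 1.27, 0.31 to 1.17, 0.10 to 1.29, 0.32 to 1.15 and -1.12 to -0.17. Past the threshold stood Fbl with a 1 CPM filter or no low-count filter and Dkc1 with no low-count filter or on exon-exon reads. Fbl stood at -0.66 with the 1 CPM filter and -0.69 with no low-count filter. The median of the genes tested on total exon reads shifted by -0.10 and -0.13 in these fits. On exon-exon reads 6.96% of all genes were called higher. The share of all genes called with no low-count filter is not given here, and nothing is read from these calls. Nop56 was below 0 in 22 of 26, Nhp2 in 12 of 26, Nop10 in 23 of 25, and Gar1 and Nolc1 in 1 of 26 each. The SE was 0.27 to 0.36 log2 units for Dkc1, Nhp2, Nop10 and Gar1, the members it was largest for.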
